A study of Mus musculus with 1627 samples.

Results

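The chemokine receptors described here are Ccr1, Ccr2, Ccr4, Ccr6, Ccr8, Ccr9, Cxcr3, Cxcr4 and Cxcr6, 9 of the 23725 genes in the deposited table. Chosen with earlier results of these data known, they form a named group of inflammatory and tissue receptors. They were followed in single regulatory T cells (Tregs), the CD4+ T cells that carry the transcription factor Foxp3 and restrain immune responses, taken from mouse spleen and from injured skeletal muscle. All cells came from 8-month-old male B6 Foxp3-Ires-Gfp mice, in which a green fluorescent protein marks cells that express Foxp3, and were collected 4 days after cardiotoxin, a snake toxin that kills muscle fibres, had been injected into muscle. Both tissues were from injured mice, so no uninjured muscle was compared. The cells were sorted as live TCRb+ CD4+ GFP+ cells and captured in droplets by inDrops, where every messenger RNA receives a unique molecular identifier (UMI).

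The data comprised 3 libraries, 1 of spleen and 2 of muscle (muscle library 1, or M1, and muscle library 2, or M2), which held 15.92%, 41.43% and 42.66% of the 1627 cells. They summed to 982570, 1533277 and 1916496 UMIs, with medians of 3541, 1976 and 2487.5 UMIs per cell. Since animals are not named in the labels, each tissue counted as 1 sample, M1 and M2 may be technical repeats, and no test between tissues was possible. The 95% intervals given with the values cover counting error only. The 12 myeloid marker genes together gave 40, 28 and 41 UMIs, and Adgre1, Cd209a and S100a8 were at 0 in each library. The summed level of the listed markers was 13.2, 13.7 and 12.5 CPM (UMIs scaled to a library sum of 1000000) for B cells, 98.7, 76.3 and 81.4 for CD8 and NK cells, 12.2, 14.3 and 14.1 for conventional CD4 cells, and 119.1, 63.3 and 60.01 for fibroblasts and endothelium. The 6 Treg markers, Foxp3 and Cd4 among them, summed to 3256, 5977 and 5036 CPM. The 6 markers of group 2 innate lymphoid cells summed to 492.6, 1345 and 1459 CPM and include Klrg1, Gata3 and Il1rl1, which tissue Tregs also express. M1 and M2 shared 11 cell barcodes, spleen and M1 shared 1, and 24 cells were affected in all.

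Chemokine receptors are membrane proteins that sense gradients of secreted chemokines and pass the signal through inhibitory G proteins, so that a cell turns and moves toward the source. Resting T cells use Ccr7 to stay in lymphoid organs, whereas activated T cells exchange it for receptors whose ligands are made in inflamed or barrier tissue. In injured muscle, Tregs accumulate and are known to aid repair. Ccr1 and Ccr2 answer to inflammatory CC chemokines such as Ccl3, Ccl5 and Ccl2, Ccr4 to Ccl17 and Ccl22, Ccr6 to Ccl20, Ccr8 to Ccl1, and Ccr9 to Ccl25 of gut and thymus. Cxcr3 answers to the interferon-induced Cxcl9 and Cxcl10, Cxcr4 to Cxcl12, and Cxcr6 to Cxcl16.

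Of the members 6 lie on mouse chromosome 9, and 4 of them in a single run of genes. In the GENCODE M21 annotation of GRCm38 (mm10), Ccr9 spans chr9:123678439-123784330 on the plus strand, Cxcr6 chr9:123806475-123811760 on the plus strand, Ccr1 chr9:123962124-123968692 on the minus strand and Ccr2 chr9:124101950-124113557 on the plus strand. Ccr4 (chr9:114490316-114504916, minus strand) and Ccr8 (chr9:120092114-120094906, plus strand) lie elsewhere on the chromosome. Ccr6 is at chr17:8236043-8257141 on the plus strand, Cxcr3 at chrX:101731535-101734269 on the minus strand and Cxcr4 at chr1:128588199-128592293 on the minus strand. Cxcr6 lies inside Fyco1, which is transcribed from the opposite strand, and the long span of Ccr9 overlaps Lztfl1, Slc6a20a, Gm10052 and AC165425.1 on the opposite strand and Gm17200 and Gm17020 on its own. The strand setting of the counting is not given in the sources used here, so reads from such overlapping genes cannot be told apart. The other members overlap no annotated gene.

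The upstream sequences of 4 members are shown because these genes neighbour each other and differed in level between the tissues. They are the 250 bases before the start in the RefSeq promoter table of GRCm38.p6, written 5′ to 3′ on the gene's own strand, at chr9:123968693-123968942 (minus strand) for Ccr1, chr9:123806227-123806476 (plus strand) for Cxcr6, chr9:124101933-124102182 (plus strand) for Ccr2 and chr9:123766961-123767210 (plus strand) for Ccr9. RefSeq starts can differ from the GENCODE spans given above: most of the Ccr2 window and all of the Ccr9 window lie inside the span of their own gene. Capitals mark the matches to any of the motifs searched on both strands.
Ccr1: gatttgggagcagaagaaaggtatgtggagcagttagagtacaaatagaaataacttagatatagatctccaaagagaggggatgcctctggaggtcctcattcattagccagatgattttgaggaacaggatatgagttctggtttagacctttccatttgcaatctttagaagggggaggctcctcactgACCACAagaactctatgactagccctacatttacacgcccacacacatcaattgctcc
Cxcr6: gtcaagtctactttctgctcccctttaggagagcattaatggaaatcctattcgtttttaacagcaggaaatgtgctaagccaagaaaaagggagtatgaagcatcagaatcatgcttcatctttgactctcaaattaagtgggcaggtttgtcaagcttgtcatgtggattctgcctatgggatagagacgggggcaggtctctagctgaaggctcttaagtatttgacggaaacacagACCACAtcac
Ccr2: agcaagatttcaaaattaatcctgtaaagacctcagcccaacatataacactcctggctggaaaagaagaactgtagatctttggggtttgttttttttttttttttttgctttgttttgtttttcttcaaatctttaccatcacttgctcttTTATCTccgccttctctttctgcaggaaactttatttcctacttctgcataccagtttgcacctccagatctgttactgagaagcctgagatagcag
Ccr9: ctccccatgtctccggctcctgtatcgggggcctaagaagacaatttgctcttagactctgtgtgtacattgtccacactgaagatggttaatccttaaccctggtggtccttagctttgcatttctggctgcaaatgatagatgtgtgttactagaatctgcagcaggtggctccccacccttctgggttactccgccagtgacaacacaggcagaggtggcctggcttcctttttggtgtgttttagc

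The motifs searched were the RUNX motif TGTGGT, the GATA motif AGATAA, the AP-1 motif TGANTCA, the STAT motif TTCNNNGAA, an interferon element, the forkhead motif TGTTTAC and the T-box motif GGTGTGA. The Ccr1 and Cxcr6 windows each held a RUNX match, on the strand opposite to the gene, 58 to 53 and 10 to 5 bases before the start. The Ccr2 window held a GATA match 97 to 92 bases before the start, and the Ccr9 window held no match. Of the members not shown, Cxcr3 held a RUNX match, Ccr8 a GATA match, Ccr4 an AP-1 match and Ccr6 a pair of STAT matches, with a GATA match before its second start. Cxcr4 held none. The RUNX letters occurred in 14.05% of the 32851 promoters in the table, the GATA letters in 9.99%, AP-1 in 6.75% and STAT in 7.02%. The interferon, forkhead and T-box letters occurred in 2.98%, 3.17% and 3.33% of all promoters and in no member's window. A match describes letters, not a bound site.

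Of the 9 receptors, 7 were higher in muscle, 1 was lower and 1 was neither. A gene was called when M1 and M2 both lay 2-fold or more from spleen on the same side in CPM, and only genes whose UMIs came to 50 or more in total were read. By that rule 7.47% of the 7617 measured genes were higher in muscle and 3.45% were lower. The median of the mean log2 fold (muscle over spleen) over the 9 receptors was 1.66, against 0.05 over all measured genes. A library sum cannot tell more cells with a receptor from more RNA of it per cell.

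**Figure D1:**
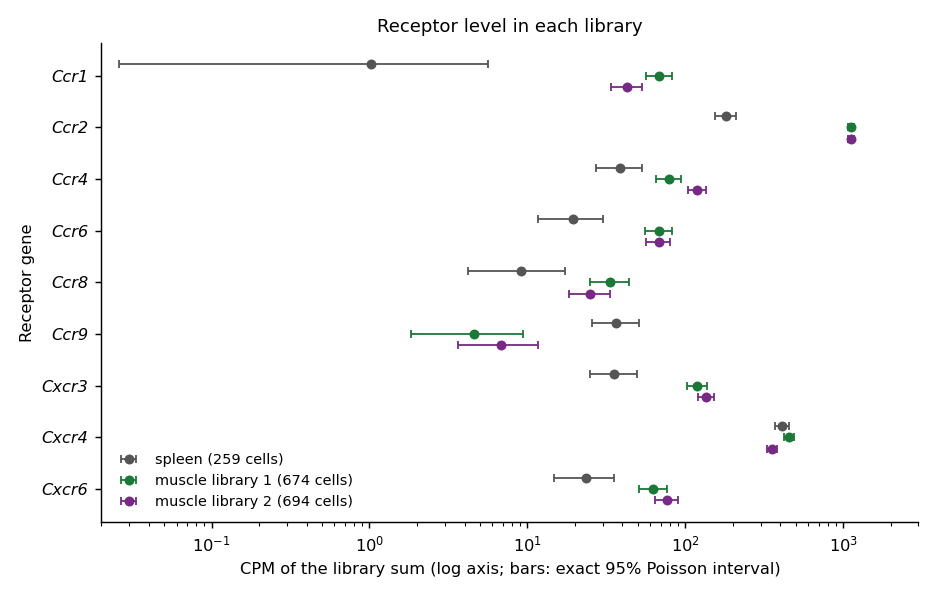
Level of each receptor in each library, as CPM of the library sum on a log axis, with exact 95% Poisson intervals; points are the single libraries. Ccr1 shows the widest gap, from 1.02 CPM in spleen to 68.5 and 42.8 CPM in muscle, Ccr9 runs the other way, and the Cxcr4 points lie together between 353.2 and 456.5 CPM.

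Ccr1, a receptor of monocytes, neutrophils and activated T cells, was almost absent from the spleen library. Its level was 1.02 CPM in spleen (exact Poisson interval 0.0258 to 5.67), 68.5 CPM in M1 (56.01 to 82.90) and 42.8 CPM in M2 (34.03 to 53.11). The spleen value was a single UMI, and the muscle libraries lay clear of spleen and apart from each other. The muscle to spleen ratio was 67.3 (exact conditional binomial interval 11.8 to 2683) and 42.04 (7.34 to 1681). M2 had 0.625 times the level of M1 (0.462 to 0.842). The muscle UMIs came from 49 and 37 cells, and no cell held more than 9.76% of them. The mean log2 fold was 5.73, but 2.04 in cells thinned to 1000 UMIs and 3.44 among cells with a Foxp3 UMI, in both of which spleen had no UMI and was put at a floor of 3 counts over the library. None of those 49 and 37 cells held a UMI of the myeloid list without Itgam, an integrin that lymphocytes can carry, against 1.187% and 1.729% of all cells of M1 and M2. At such low shares, finding none among so few holders was likely in any case. The source of the Ccr1 UMIs was not tested.

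Ccr2, best known for drawing monocytes out of bone marrow, was the receptor seen in most muscle cells. Its level was 180 CPM in spleen (154.6 to 208.7), 1122 CPM in M1 (1070 to 1177) and 1123 CPM in M2 (1076 to 1172). Both muscle libraries gave the same level, 6.23 times (5.33 to 7.32) and 6.24 times (5.35 to 7.31) that of spleen. A Ccr2 UMI was found in 7.34% of spleen cells (4.474 to 11.22%, 19 cells), in 61.9% of M1 (58.08 to 65.55%) and in 62.7% of M2 (58.96 to 66.29%).

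The libraries differed in how many cells held Ccr2. Summed over the holding cells the Ccr2 level was 1707 CPM in spleen (1465 to 1978), 1724 CPM in M1 (1643 to 1807) and 1701 CPM in M2 (1630 to 1775), and the median per holding cell was 1679, 1364 and 1394 CPM. Holders are picked by having a UMI, at unequal depth, so these values do not show that levels per cell were alike. No spleen holder had a single Ccr2 UMI, whereas 26.14% of the holders in M1 and 17.70% in M2 did. Depth differed too: the median spleen holder had 5160 UMIs of all genes, against 2094 and 2664 for muscle holders. Its part in the holders' UMI numbers was not tested.

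Ccr4, a receptor of skin-homing T cells and of many Tregs, was 38.7 CPM in spleen (27.4 to 53.1), 78.9 CPM in M1 (65.5 to 94.3) and 118.97 CPM in M2 (104.02 to 135.45). The 3 intervals did not overlap, and the ratio to spleen was 2.04 (1.41 to 3.02) and 3.08 (2.17 to 4.46). The first ratio stood at the edge of the 2-fold rule, and the call was lost under edgeR's TMM factors, DESeq2's size factors and library totals without ribosomal protein genes, where the mean log2 fold was 1.28, 1.26 and 1.17. It was also lost among cells with a Foxp3 UMI, at 0.93, and in cells thinned to 1000 UMIs, at 1.01.

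Ccr6, which guides Th17 cells and some Tregs to epithelia, was 19.3 CPM in spleen (11.6 to 30.2), 67.8 CPM in M1 (55.4 to 82.2) and 67.8 CPM in M2 (56.7 to 80.5). Both ratios were 3.51 (2.14 to 6.06 and 2.16 to 6.01). Of the 19 spleen UMIs of Ccr6, 36.8% were in 1 cell: the mean log2 fold was 1.81, but 2.40 without the cell of most UMIs in each library and 2.44 without cells with a myeloid marker UMI. Ccr8, a receptor often used to mark Tregs of tissues and tumours, was 9.16 CPM in spleen (4.19 to 17.4), 33.3 CPM in M1 (24.8 to 43.7) and 25.05 CPM in M2 (18.5 to 33.2). The spleen value rested on 9 UMIs in 4 cells, 5 of them in a single cell. The ratios of 3.63 (1.77 to 8.39) and 2.73 (1.33 to 6.34) are correspondingly imprecise, and without the richest cell in each library the mean log2 fold was 2.58 in place of 1.66.

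Ccr9, the gut and thymus homing receptor, was the member that ran the other way. Its level was 36.6 CPM in spleen (25.7 to 50.7), 4.57 CPM in M1 (1.84 to 9.41) and 6.78 CPM in M2 (3.61 to 11.6). Spleen was thus 8.03-fold (3.52 to 21.4) and 5.40-fold (2.80 to 11.1) above the muscle libraries, which overlapped each other. The 36 spleen UMIs came from 7 cells, and 38.9% of them from 1 cell, so few cells carry the value. The muscle libraries held 7 and 13 UMIs, in 4 and 8 cells.

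Cxcr3, a receptor of T-bet-expressing T cells, was 35.6 CPM in spleen (24.8 to 49.5), 118.7 CPM in M1 (102.1 to 137.3) and 135.7 CPM in M2 (119.7 to 153.2). The muscle libraries overlapped each other and lay above spleen, by 3.33-fold (2.31 to 4.93) and 3.81-fold (2.67 to 5.59). Cxcr6, a receptor of tissue-resident lymphocytes, was 23.4 CPM in spleen (14.8 to 35.1), 62.6 CPM in M1 (50.7 to 76.5) and 76.2 CPM in M2 (64.3 to 89.6). Its ratios were 2.67 (1.68 to 4.42) and 3.25 (2.09 to 5.30). Of the 23 spleen UMIs of Cxcr6, 16 were in 1 cell, and without the cell of most UMIs in each library the mean log2 fold was 3.14 in place of 1.56. The call was lost among cells with a Foxp3 UMI, at 0.84, and in cells thinned to 1000 UMIs, at 0.94.

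Cxcr4, which holds lymphocytes in bone marrow and niches rich in Cxcl12, was 409.1 CPM in spleen (370.1 to 451.1), 456.5 CPM in M1 (423.3 to 491.6) and 353.2 CPM in M2 (327.1 to 380.9). Spleen lay between the muscle libraries, and the ratio of muscle to spleen was 1.12 (0.986 to 1.26) and 0.863 (0.762 to 0.979). The muscle libraries differed more from each other, at 0.774 (0.695 to 0.861), than either did from spleen.

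Among 13 further chemokine receptors 6 were measured, and 2 of these were higher in muscle, 1 was lower and 3 were neither. By the same rule 7.47% of all measured genes were higher and 3.45% lower. Ccr3 and the decoy-like receptor Ccrl2 were 4.27-fold and 4.70-fold, and 3.71-fold and 3.50-fold, higher. For Ccr7, which homes cells to lymph nodes, spleen exceeded M1 by 9.75-fold (7.60 to 12.7) and M2 by 8.31-fold (6.72 to 10.4). Transcripts of Ccr1 and Ccr3 shared 0.606% of the 31-base stretches of Ccr1, and no other pair among the 9 members, Ccr3 and Ccrl2 shared any. Of 33 chemokine ligands 3 were measured, Cxcl10, Ccl5 and Cxcl2, and none was called. Of 26 genes of receptor signalling 24 were measured, and Gng2, a G protein gamma subunit, was called higher, at 3.09-fold and 3.46-fold, with none lower. This single call is not more than the share over all genes gives.

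Along chromosome 9 the receptor run did not move as a block. From the start of Ccr9 to the end of Ccr2 it covers 435119 bases. With the neighbours on its left it has 11 genes of the deposited table, of which 8 were measured. Of these 8, 5 were higher in muscle, 1 was lower and 2 were neither. Over all measured genes 7.47% were higher and 3.45% lower. Ccr9 ends 22145 bases before Cxcr6 starts, yet Ccr9 was lower and Cxcr6 higher. Xcr1, a receptor of cross-presenting dendritic cells that lies between Cxcr6 and Ccr1, gave 43, 44 and 74 UMIs and was neither. Fyco1, the gene around Cxcr6, was higher too, with 4.07 CPM in spleen, 26.1 CPM in M1 and 18.8 CPM in M2.

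To compare shares of cells at equal depth, each cell was thinned to 1000 UMIs, which left out 26 cells of M1, 7 of M2 and none of spleen. Ccr2 was then seen in 6.95% of spleen cells (exact binomial interval 4.17 to 10.8%), 48.9% of M1 (45.01 to 52.84%) and 50.2% of M2 (46.41 to 54.02%). Ccr1 was seen in no spleen cell, which allows a share of up to 1.41%, in 4.32% of M1 (2.89 to 6.18%) and in 2.77% of M2 (1.67 to 4.29%). Before thinning it was seen in 1 spleen cell, or 0.386% (0.00977 to 2.13%), and in 7.27% of M1 (5.43 to 9.50%) and 5.33% of M2 (3.78 to 7.27%). Cxcr3 was seen in 3.09% of spleen cells (1.343 to 5.995%) and in 8.95% and 9.32% of muscle cells. For these 3 receptors both muscle intervals lay above that of spleen. The share of all genes with intervals so apart was not computed, so this count is not set against other genes. For Ccr4 (4.25%, 6.64% and 7.13%), Ccr6 (1.16%, 4.78% and 5.39%), Ccr8 (0.772%, 2.31% and 1.46%), Ccr9 (1.93%, 0.463% and 0.291%) and Cxcr6 (1.54%, 3.55% and 3.93%) an interval of muscle overlapped that of spleen. Cxcr4 was seen in 28.2% of spleen cells, 29.6% of M1 and 25.2% of M2. All sorted cells were Tregs, so there was no other cell type in which to read the level that free RNA gives.

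**Figure D2:**
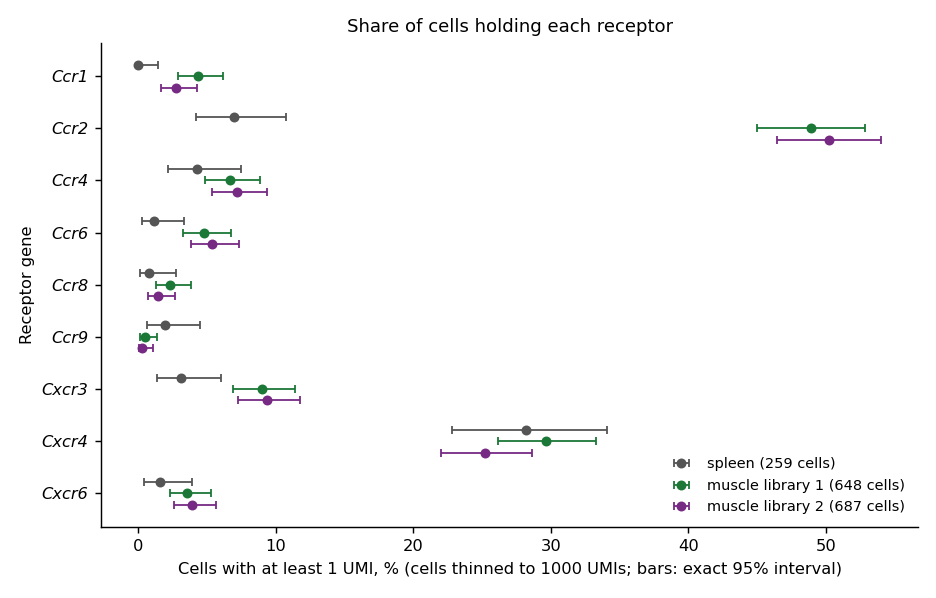
Share of cells with at least 1 UMI of each receptor after thinning every cell to 1000 UMIs, in percent, with exact 95% binomial intervals; points are the single libraries. Ccr2 stands at 6.95% in spleen and at 48.9% and 50.2% in muscle, while the Cxcr4 intervals overlap.

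More of the 9 receptors were seen per cell in muscle than in spleen, and Ccr2 had the largest difference in share. After thinning, 58.3% of spleen cells (52.04 to 64.37%) showed none of the 9, against 25.9% of M1 (22.6 to 29.5%) and 28.1% of M2 (24.8 to 31.6%). At least 2 receptors were seen together in few spleen cells: 4.25% held 2 and 0.772% held 3 or more. In M1, 22.5% held 2 and 6.02% held 3 or more, and in M2 the shares were 22.7% and 5.39%. The mean was 0.479 receptors per cell in spleen, 1.10 in M1 and 1.06 in M2. The most frequent single state after none was Cxcr4 alone in spleen (24.7%) and Ccr2 alone in muscle (25.3% and 26.5%). Ccr2 with Cxcr4 and no other member was found in 8.49% and 9.75% of muscle cells.

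**Figure D3:**
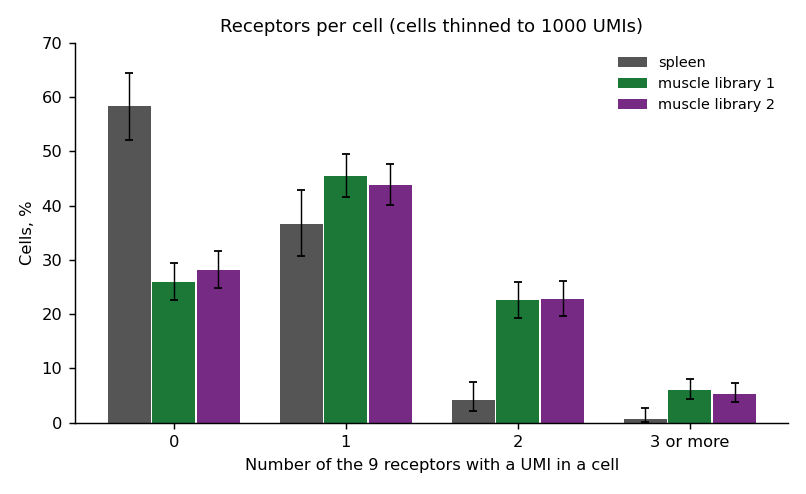
Number of the 9 receptors with a UMI in a cell, as percent of cells thinned to 1000 UMIs in each library; bars start at 0 and carry exact 95% binomial intervals. Spleen has its highest bar at 0 receptors (58.3%), and both muscle libraries at 1 (45.5% and 43.8%).

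Whether receptors occurred in the same cells was read from the number of muscle cells with both, divided by the number expected from the 2 shares. Thinned cells left most pairs too sparse: 13 of 36 pairs reached 10 observed or expected cells, 4 of them were above 1 in both muscle libraries, none was below 1 in both and 9 were mixed. The 4 were close to 1, from 1.07 for Ccr2 with Ccr4 through 1.19 for Ccr2 with Ccr6 and for Ccr4 with Cxcr3 to 1.25 for Ccr2 with Cxcr6. Ccr2 with Ccr6 did not hold: it was 0.839, below 1 in both libraries, with another thinning seed, and mixed at 1500 UMIs and in all UMIs. Ccr4 with Cxcr3 was mixed with the other seed. Using all UMIs gave more pairs, and because deep cells hold more of everything the expected number was then summed over 4 classes of cells ranked by UMIs in each library. That reading was chosen after seeing the data. It gave 26 pairs with enough cells, of which 11 were above 1 in both libraries, 10 were below and 5 were mixed.

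Ccr1 and Cxcr6 were found together more often than their shares give. Within depth classes, 13 cells of M1 held both against 4.12 expected, and 14 cells of M2 against 3.67. Together that was 27 cells against 7.79, a ratio of 3.46 (exact Poisson interval 2.28 to 5.04). In thinned cells 8 held both against 1.74 expected, with ratios of 6.04 and 2.68 in the muscle libraries, below the minimum of 10 cells. The only spleen cell with a Ccr1 UMI also held Cxcr6. Of the Ccr1 holders in muscle, 26.5% and 37.8% held Cxcr6, against 5.44% and 6.09% of the cells without Ccr1.

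Ccr6 and Cxcr3 were found together less often. Both were held by 6 cells of M1 against 12.01 expected and by 9 cells of M2 against 14.3, so 15 cells against 26.3, a ratio of 0.569 (0.319 to 0.939). Ccr8 with Cxcr3 pointed the same way with 6 cells against 12.8, a ratio of 0.467 whose interval (0.171 to 1.02) reaches 1. Ccr6 with Ccr8 was above 1, with 15 cells against 8.86 and a ratio of 1.69 (0.948 to 2.79), an interval that also reaches 1. Ccr6 with Cxcr6 gave 19 cells against 12.02, a ratio of 1.58 (0.952 to 2.47). Of the pairs with enough cells, the intervals of Ccr1 with Cxcr6 and of Ccr6 with Cxcr3 excluded 1. The intervals were not adjusted for the 26 pairs read.

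**Figure D4:**
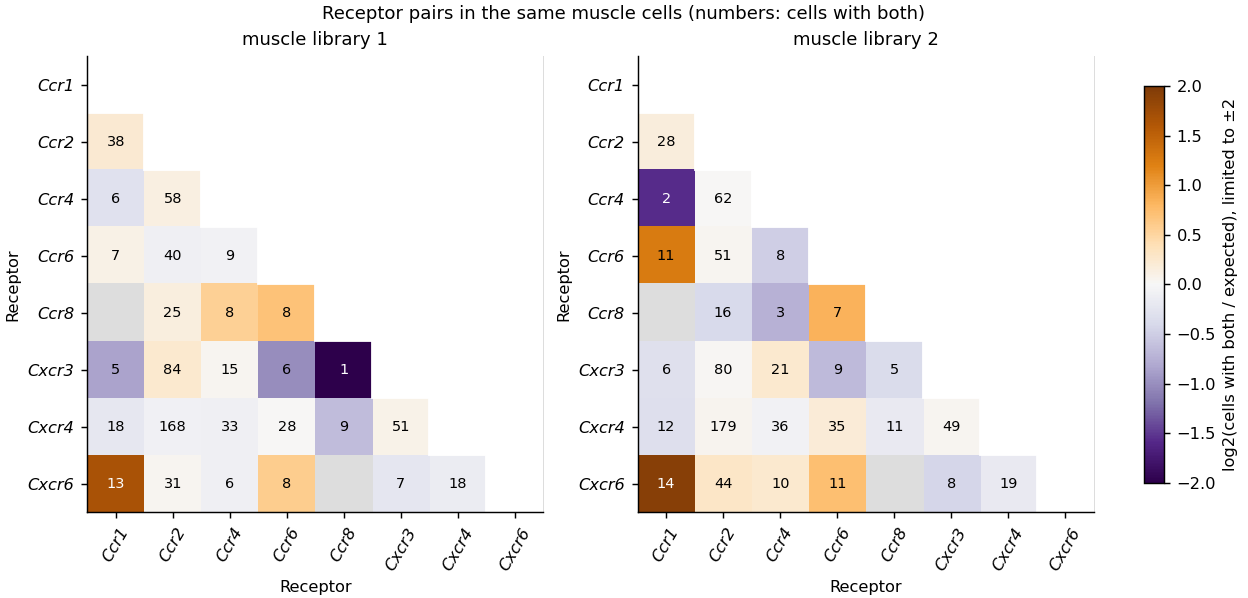
Receptor pairs in the same cells of M1 and M2. Colour is log2 of cells with both over the number expected within 4 classes of UMIs per cell, numbers are cells with both, and grey squares had under 10 observed or expected cells. Ccr1 with Cxcr6 is the darkest orange square in both panels (13 and 14 cells), and Ccr6 with Cxcr3 is purple in both (6 and 9 cells).

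Ccr2 with Cxcr4, the pair with most cells, stood at what the shares give in muscle, with a ratio of 0.988 (0.887 to 1.10). In spleen 5 of the 19 Ccr2 holders held Cxcr4, against 50.42% of the 240 other cells. The Cxcr4 level was 86.8 CPM in those spleen holders and 447.2 CPM in the other spleen cells, a ratio of 0.194 (0.0881 to 0.372).

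The genes that went with each receptor were then read in muscle, by summing UMIs over cells with and over cells without a UMI of the receptor in each muscle library. For 8 receptors there were at least 30 holding cells in each library, Ccr9 being the exception. Of 6929 genes, those 2-fold or more higher in M1 and in M2 were 1.34% for Ccr1, 0.318% for Ccr2, 0.346% for Ccr4, 0.967% for Ccr6, 2.68% for Ccr8, 0.361% for Cxcr3, 0.289% for Cxcr4 and 1.17% for Cxcr6. The shares 2-fold or more lower were 2.99%, 0.649%, 1.70%, 2.31%, 3.12%, 1.89%, 0.361% and 2.64%. Smaller groups of holders give noisier sums: Ccr8 had 33 and 31 holders, whereas Ccr2 had most cells of both libraries. Holders were also deeper, with medians of 3459 and 3621 UMIs for Ccr8 against 1951 and 2471 in the other cells. The genes named here were ranked by their folds in these cells, so their folds are a description.

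Ccr1 holders and Cxcr6 holders shared the 13 cells of M1 and 14 cells of M2 that held both. The fold of each gene in holders of the other rests on these cells, so it repeats the pair result. Cxcr6 was 268.7 CPM in Ccr1 holders and 38.60 CPM in the other cells of M1, and 281.3 and 61.50 CPM in those of M2, which is 6.96-fold (4.54 to 10.6) and 4.57-fold (3.05 to 6.72). Of the 7 members measured, no other was past 2-fold in both libraries in Ccr1 holders. In cells thinned to 1000 UMIs Cxcr6 was no longer 2-fold in both libraries in Ccr1 holders, with a mean log2 fold of 1.82. Ccr1 was 4.68-fold and 8.04-fold higher in Cxcr6 holders. AA467197 led the Ccr1 list at 5.31-fold and 19.96-fold and was also high in Cxcr6 holders, at 4.45-fold and 13.3-fold. AA467197 rested on 10 to 13 UMIs in the holders of each library, and the part of the shared cells was not tested. Cxcr6 holders also had more of Mt1, a metallothionein, at 4.02-fold and 5.14-fold, and of the lysosomal transporter Slc15a3, at 3.83-fold and 3.99-fold. Without the cell richest in Mt1 the Mt1 folds were 2.75 and 3.53. The checkpoint receptor gene Havcr2 was 2.25-fold and 2.86-fold higher in Cxcr6 holders, and 1.61-fold and 2.23-fold without the cell richest in it. Ccr7 was 0.301 and 0.456 times the level in other cells, on 2 and 5 UMIs. In Ccr1 holders the chemokine ligand Cxcl10 was 0.144 and 0.419 times the level in other cells, a call that was lost in thinned cells. The ecto-enzyme gene Nt5e and Pydc3 were lowest, with 1 UMI of Nt5e in the holders of each library and 0.06550 and 0.07721 times the level in the other cells.

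Penk, the gene of the opioid precursor proenkephalin, was higher in Ccr6 holders and in Ccr8 holders and lower in Cxcr3 holders. Penk was 795.5 CPM in Ccr6 holders and 88.99 CPM in the other cells of M1, and 549.4 and 151.9 CPM in those of M2, which is 8.94-fold (6.997 to 11.45) and 3.62-fold (2.92 to 4.47). The excess in Ccr8 holders was 6.40-fold in M1 (4.94 to 8.24) and 5.02-fold in M2 (3.97 to 6.30). In Cxcr3 holders it was 0.0671 and 0.271 times the level in the other cells. These sums rest on few cells: Penk was seen in 9 Ccr6 holders of each muscle library and in 9 and 4 Ccr8 holders. The cell richest in Penk held 38.5% and 31.2% of the UMIs in Ccr6 holders, and without it the folds were 5.71 and 2.51. In Ccr8 holders they were 4.26 and 3.02 without it. In thinned cells the call was lost for Ccr6 holders, with a mean log2 fold of 1.58, and kept for Ccr8 and Cxcr3 holders, at 3.50 and -2.17. Of the 24 Penk UMIs in Cxcr3 holders of M2, 62.5% were in 1 cell. In M2 the richest cell, with 43 Penk UMIs, held both Ccr6 and Ccr8. In M1 the Ccr8 holder richest in Penk, with 34 Penk UMIs, also held both, so the Penk values of Ccr6 and Ccr8 holders are not separate.

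**Figure D5:**
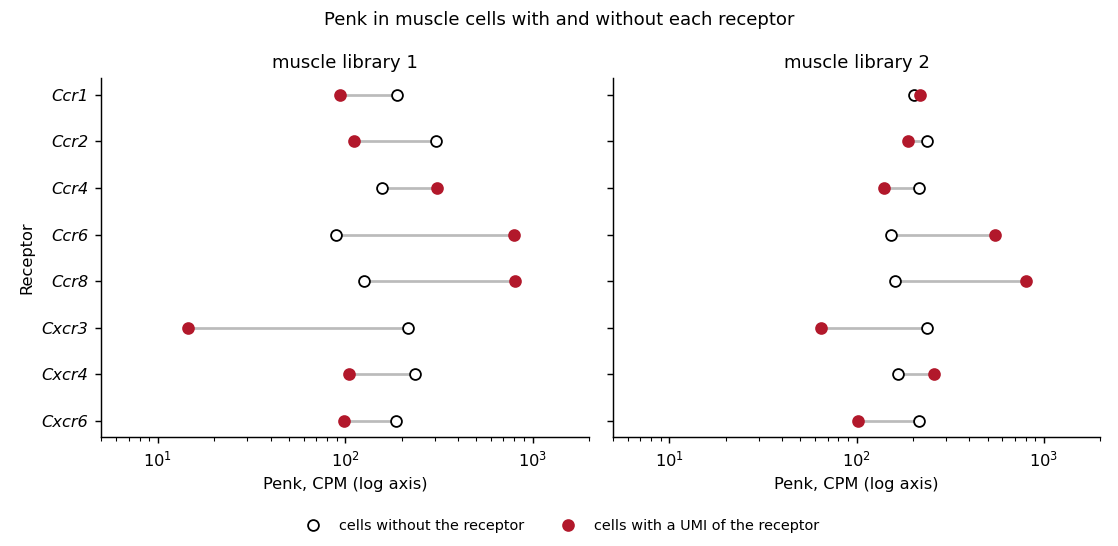
Level of Penk in CPM, on a log axis, in muscle cells with a UMI of each receptor (filled) and without one (open), for M1 and M2. Filled points lie to the right for Ccr6 (795.5 and 549.4 CPM) and Ccr8 (809.3 and 803.8 CPM) and to the left for Cxcr3 in both libraries; Ccr1, Ccr4 and Cxcr4 change sides between libraries.

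Counted as cells, and in classes chosen after the values were seen, Penk was found in 18.1% of 83 cells with Ccr6 or Ccr8 and no Cxcr3 in M1 (10.48 to 28.05%) and in 11.6% of 86 such cells in M2 (5.72 to 20.3%). Among cells with Cxcr3 and neither other receptor it was found in 1 cell of M1, or 0.971% (0.0246 to 5.29%), and in 7 cells of M2, or 6.60% (2.70 to 13.1%). The 7 and 14 cells that held Cxcr3 together with Ccr6 or Ccr8 had no Penk UMI. Cells with none of the 3 receptors held Penk in 5.41% and 6.76% of cells, so the Cxcr3 share of M2 was close to that of the remaining cells. In spleen Penk was seen in 1 of 15 cells with Ccr6 or Ccr8, in 1 of 17 with Cxcr3 and in 2.64% of the rest.

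Ccr6 holders also had more Il1r2, the decoy receptor for interleukin 1, at 5.60-fold (3.39 to 9.17) and 4.28-fold (2.83 to 6.41), and more Laptm4b and Tsfm. Without the cell richest in Il1r2 the Il1r2 folds were 3.63 and 3.71. Ccr6 holders had less Cxcr3, at 0.355 and 0.435, and less Tbx21, the gene of T-bet, at 0.305 and 0.301, on 3 and 2 UMIs. In Cxcr3 holders Ccr6 was 0.379 and 0.460 times, and Ccr8 0.0909 and 0.482 times, the level in other cells. These Cxcr3, Ccr6 and Ccr8 folds rest on the cells that held both receptors of a pair, so they repeat the pair results. Thinned cells left too few UMIs for a value of Ccr8 in Cxcr3 holders or of Tbx21 in Ccr6 holders. The trefoil factor gene Tff1 was 0.102 and 0.136 times the level in other cells in Cxcr3 holders. Its call was lost in thinned cells, at a mean log2 fold of -0.08. Tbx21 was 1.95 and 1.63 times the level in other cells in Cxcr3 holders, under the 2-fold rule. Ccr8 holders were further marked by the mitochondrial gene Ppif, the lactate transporter gene Slc16a1 and the antioxidant gene Srxn1, at 4.80-fold or more in each library. They had less Il10, at 0.434 and 0.111, and less Ifit1, an interferon-induced gene, at 0.0977 and 0.128. The Ifit1 values rest on 2 UMIs in the holders of each library, and thinned cells left too few for a value. Ifit1 was seen in 6.06% and 3.23% of Ccr8 holders, against 11.9% and 9.65% of the other cells. Havcr2 was 3.10-fold and 2.03-fold higher in Ccr8 holders, and 1.89-fold and 1.15-fold without the richest cell.

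The more widely held receptors marked few genes. The genes ranked highest in Ccr2 holders were Haus4, Tmem43, Bspry and Eya2, at 2.57-fold to 3.75-fold. Lowest were Gnl3 and Evl, at 0.256 times or less. Each of the 4 higher genes had under 50 UMIs in the holders and 3 to 7 UMIs in the other cells of each library. The M1 intervals of Bspry (0.818 to 15.3) and Eya2 (0.949 to 11.3) included 1. Of the 19 measured tissue Treg genes none was past 2-fold in both libraries in Ccr2 holders. Split by Ccr2 UMIs, Gzmb was 1578 CPM in cells with none, 2375 CPM with 1 to 2, 2613 CPM with 3 to 5 and 3540 CPM with 6 or more in M1, and 1439, 2196, 2090 and 3176 CPM in M2. The median UMIs per cell also differed over these classes, from 1799 to 2428 and from 2250 to 2999, and their part was not tested. Gzmb was picked for this after its values were seen. Cxcr4 holders had less Tbx21, at 0.301 and 0.315, and more Gpkow, Ankrd46, Snx13 and Golt1b. Ccr4 holders led with Alkbh4, Rnpc3, Ptpn9 and Fam193b, at 2.60-fold to 6.83-fold, where the M1 interval of Fam193b (0.820 to 7.21) included 1. Cxcr3 holders led with Etaa1, Lin37, Bach1 and Tmem222, at 2.60-fold to 3.96-fold.

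In spleen the few Ccr2 holders differed from the other cells in several tissue Treg genes. Of 13 tissue Treg genes measured there, 4 were at least 2-fold higher in the 19 holders and 2 lower, where 10.8% of 3287 measured genes were higher and 18.2% lower. Gzmb, the gene of granzyme B, was 1581 CPM in holders and 118.3 CPM in the others, a ratio of 13.4 (10.4 to 17.3), and was seen in 8 of 19 against 6 of 240 cells. Klrg1, a receptor of effector lymphocytes, was seen in 9 of 19 against 23 of 240 cells, at a ratio of 9.93 (7.53 to 13.1). Icos and Lgals1 were 2.63-fold and 3.92-fold higher, and Icos was seen in all 19 holders against 48.75% of the other 240. Tnfrsf9 and Tnfrsf4, members of the tumour necrosis factor receptor family, were lower, at 0.182 and 0.379. Ccr7 was 48.2 CPM in holders against 513 CPM, a ratio of 0.0940 (0.0304 to 0.221), with all 5 UMIs in a single cell. Tcf7 and Bach2, factors of resting T cells, were at 0 UMIs in the holders and at 143.4 and 83.06 CPM in the others. Foxp3 did not differ past counting error, at a ratio of 1.02 (0.714 to 1.43). The holders were deeper, with a median of 5160 UMIs against 3400, and its part in the shares was not tested. A UMI of the myeloid list without Itgam was found in 2 of the 19 holders (10.5%) and in 1.93% of all spleen cells. Without the cells that held one, 5 of the 13 tissue Treg genes were higher, Nfil3 being added, and 2 lower, where 11.62% of the measured genes were higher and 18.95% lower, and the ratios were 14.3 for Gzmb, 9.15 for Klrg1, 2.88 for Icos and 4.05 for Lgals1. Under the UMI minimum of that comparison, Itgae, the integrin that binds E-cadherin, was seen in 8 of 19 against 10 of 240 cells, and Cxcr6 in 3 of 19 against 3 of 240. The spleen genes were chosen after their values were seen.

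Cells with markers of resting T cells were more frequent in the spleen library, so the receptors were also read apart from them. A UMI of Ccr7, Tcf7, Lef1 or Bach2, a list chosen after the data were seen, was found in 51.74% of spleen cells, 8.90% of M1 and 7.49% of M2. This split is a range set by marker UMIs, not a cell type. These shares are of unthinned cells, and muscle cells were less deep than spleen cells. Cells with a marker UMI had medians of 3717, 2298.5 and 2713 UMIs in spleen, M1 and M2, against 3207, 1951.5 and 2475 in the others. The part of depth in the split was not tested. Among cells with no such UMI, 5 receptors were higher by the same rule, where 9.67% of 7056 genes were higher and 4.22% lower. Ccr2 was 383.2 CPM in spleen, 1162 CPM in M1 and 1121 CPM in M2, which is 3.03-fold (2.59 to 3.57) and 2.92-fold (2.50 to 3.44). The Ccr1 excess was 30.9-fold and 19.5-fold, on 1 spleen UMI. Ccr4 was 2.45-fold and 3.73-fold, Ccr6 3.78-fold and 3.97-fold, and Cxcr3 2.78-fold and 3.15-fold higher. Cxcr6 gave 1.33 (0.835 to 2.20) and 1.49 (0.955 to 2.44), and Ccr8 gave 1.67 (0.771 to 4.12) and 1.41 (0.657 to 3.47), so neither was called. Cxcr4 gave 1.20 and 0.929, and Ccr9 was under the UMI minimum.

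Within spleen the receptors differed in where they fell. Ccr2 was 383.2 CPM in cells without these resting markers and 7.53 CPM in cells with them, a ratio of 50.9 (19.5 to 188.9), and 18 of its 19 holders had no marker UMI. In muscle the corresponding Ccr2 ratios were 1.56 (1.28 to 1.91) in M1 and 0.973 (0.835 to 1.14) in M2. Of the muscle cells with resting markers, 29 of 60 in M1 and 39 of 52 in M2 held a Ccr2 UMI, against 0.746% of such spleen cells. Cxcr6 was at 0 UMIs in spleen cells with resting markers and at 50.95 CPM in those without. With the 0 put at a floor of 3 counts over the group the ratio was 9.02, with a lower limit of 6.76. That ratio includes the single cell rich in Cxcr6. Ccr8 was 17.7 and 1.88 CPM, with 8 and 1 UMIs. Ccr4 and Ccr6 were found in 8.21% and 3.73% of spleen cells with resting markers and in 8.00% and 4.80% of those without.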

How the data were processed

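Single-cell libraries were made with inDrops, which counts unique molecular identifiers (UMIs) near the 3′ end of transcripts, from sorted Foxp3 reporter-positive CD4+ T cells. Per the labels, the deposited values are UMI counts per gene and cell. The submitters' processing notes name TopHat2, SAMtools and mm10. Their versions, the annotation, how UMIs were collapsed, the strand setting and any filter on cells were not given in the sources used here. All 1627 deposited cells and 23725 genes were used, and no doublet caller was run.

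Each library's UMIs were summed over its cells and expressed as CPM. Levels carry exact Poisson intervals, shares exact binomial (Clopper-Pearson) intervals and ratios exact conditional binomial intervals, all at 95% and for counting error only, since each tissue is 1 sample. 1 UMI was worth 1.02 CPM in spleen, 0.652 CPM in M1 and 0.522 CPM in M2. A call needed 50 UMIs over the 3 libraries and a 2-fold difference the same way in both muscle libraries. For a group with 0 UMIs, a floor of 3 counts over the group was used. Cells were thinned without replacement to 1000 UMIs (seed 1). A receptor pair was read where at least 10 cells held both or were expected to. For receptors with at least 30 holding cells in each muscle library, the 4 genes highest and 2 lowest by the smaller log2 fold were named. Predicted genes, receptor segments and ribosomal protein genes were left out, and genes needed 10 UMIs in each muscle library. Of the other lists up to 4 genes of most UMIs were named, and other genes named were chosen after their values were seen. The resting-marker split uses fewer markers than planned, a list chosen after the data were seen, and some genes of the lists are not reported here. The members and lists were chosen with earlier results of these data known. The counting steps were tested on simulated data. Alternatives were edgeR and DESeq2 scaling factors, other minimums and folds, and cells left out. The tools were DESeq2 1.42.0 and edgeR 4.0.16 (R 4.3.3), and Python 3.11.15 with scipy 1.17.1, numpy 2.4.6, matplotlib 3.10.9 and pandas 2.3.3.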

Additional observations from a re-analysis of the deposited data

How the results depend on the processing

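No receptor changed direction past the 2-fold rule under the 17 alternatives run. The mean log2 fold of muscle over spleen ranged from 2.04 to 6.07 for Ccr1, 2.48 to 3.18 for Ccr2, 0.93 to 1.62 for Ccr4, 1.31 to 2.44 for Ccr6, 1.41 to 2.58 for Ccr8, -4.86 to -2.20 for Ccr9, 1.68 to 2.28 for Cxcr3, -0.21 to 0.16 for Cxcr4 and 0.84 to 3.14 for Cxcr6. The 7 receptors called higher became 4 at 3-fold and 5 in thinned cells, and the 1 called lower became 0 at a minimum of 200 UMIs, which fewer receptors reach. The 3 receptors whose thinned share lay above spleen with intervals apart became 5 in unthinned cells and 5 with another seed. The share of all genes with intervals so apart was not computed. Pairs above 1 in both muscle libraries went from 4 to 12 in unthinned cells, 10 at 1500 UMIs, 11 within depth classes, and 10 when high-UMI cells and shared barcodes were also left out. Pairs below 1 went from 0 to 8, 2, 10 and 9 in these, and to 3 with another seed. With 1 muscle library alone, 7 to 10 pairs were above and 3 to 6 below 1. The depth classes and the removal of the richest cell were chosen after seeing the data. Of the genes measured, the mean share over 8 receptors that was 2-fold lower in holders went from 1.96% to 1.27% in thinned cells, where 4177 genes were measured in place of 6930, and the share 2-fold higher from 0.934% to 1.36%. For 7 pairs of receptor and gene, thinned cells left too few UMIs for a value. Among them were Ccr8 in Cxcr3 holders, Tbx21 in Ccr6 and Cxcr4 holders, and AA467197 in Ccr1 and Cxcr6 holders. The others were Ifit1 in Ccr8 holders and Evl in Ccr2 holders. The receptors lower in cells with resting markers in all 3 libraries were 1 (Cxcr3), but 4 when 2 marker UMIs were asked for (Ccr2, Ccr4, Cxcr3 and Cxcr6) and 3 in thinned cells (Ccr4, Ccr6 and Cxcr6), so that list depends on the setting. No paired analysis was possible because spleen has a single library and no test was made. Each tissue is 1 sample, so the spread between animals is unknown, and receptors with few spleen UMIs (Ccr1, Ccr8, Cxcr6, Ccr6) are limited by depth.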

Other observations

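Of the chemokine receptors outside the 9, the 3 that were neither higher nor lower in muscle had no shared direction. Cxcr2, a neutrophil receptor, was 0.822 times (0.702 to 0.962) and 1.21 times (1.05 to 1.39) its spleen level. Cx3cr1 was 0.587 times (0.314 to 1.09) and 0.876 times (0.517 to 1.52), and Xcr1 was 0.656 times (0.421 to 1.02) and 0.882 times (0.598 to 1.32). The chemokine gene Cxcl10 was 1.84 times (1.54 to 2.21) its spleen level in M1 and 1.15 times (0.954 to 1.38) in M2.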
